A study of Mus musculus with 6 samples.

Results

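The cytosolic ribosomal protein genes of the mouse were followed in the neonatal cerebellum with and without a Cre transgene acting on a floxed Tox3 allele. Members were all protein-coding genes of the count table whose symbol is Rpl or Rps with a number, together with Rplp0, Rplp1, Rplp2 and Rpsa, leaving out the Rps6k kinases and symbols that end in ps (pseudogenes, with or without a number). The rule found 86 of 54532 genes. They comprised 43 genes of the large subunit, 31 of the small subunit, 3 of the stalk and 8 paralogs or retrogene copies. The last one, Rps19bp1, encodes a protein that binds a ribosomal protein and enters by its name only. Bulk poly-A RNA was sequenced from 6 cerebella at postnatal day 1 (P1). The 3 control libraries came from littermates labelled Tox3f/f, which carry the floxed allele without Cre, and the 3 mutant libraries from animals labelled Nestin-cre;Tox3f/f. Nestin-Cre drives recombination in the nervous system, and since only the mutants carry it, the transgene and the deletion cannot be told apart. The source does not state that the libraries of a group came from separate litters, so p-values measure the spread between these samples.

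A cytosolic ribosome is built from a large subunit, which forms peptide bonds, and a small subunit, which reads the mRNA. Each protein is needed in about equal amounts, and surplus protein is degraded. Ribosomal protein mRNAs carry a 5′ terminal oligopyrimidine (TOP) tract, a C followed by a run of pyrimidines at the very start of the transcript, through which mTOR and LARP1 control their translation. Granule neuron progenitors (GNPs) are the main dividing cells of the neonatal cerebellum, and growing, dividing cells make many ribosomes.

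Start sites are shown for 6 members with large falls between the groups, for the stalk genes Rplp0 and Rplp2, and for the retrogene copy of Rps27. RefSeq promoter sequences on GRCm38.p6 matched 66 of the 86 members. Each window runs from 10 bases before the listed start to base 20 of the transcript, 5′ to 3′ on the gene's own strand. Capitals mark the longest run that begins with C and goes on with at least 4 further pyrimidines.
Rps12 (chr10:23787190-23787219, minus strand): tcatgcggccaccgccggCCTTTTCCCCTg
Rps27 (chr3:90213629-90213658, minus strand): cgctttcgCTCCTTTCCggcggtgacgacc
Rps27rt (chr9:114982720-114982749, minus strand): ttatcccttgCTTTCCggcggtgacgacct
Rps6 (chr4:86857348-86857377, minus strand): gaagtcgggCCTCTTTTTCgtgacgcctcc
Rps26 (chr10:128626487-128626516, minus strand): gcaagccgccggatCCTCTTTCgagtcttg
Rpl4 (chr9:64173377-64173406, plus strand): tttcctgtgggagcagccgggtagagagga
Rps4x (chrX:102189372-102189401, minus strand): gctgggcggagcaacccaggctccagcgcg
Rplp0 (chr5:115559457-115559486, plus strand): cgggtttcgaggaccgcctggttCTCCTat
Rplp2 (chr7:141447641-141447670, plus strand): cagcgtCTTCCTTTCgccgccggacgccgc

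In Rps6, Rps27 and Rplp2 the run spans the listed start, whereas in Rps12 and Rps26 it lies a few bases downstream. The windows of Rpl4 and Rps4x hold no such run, which says only that these letters are not in the window at the start that RefSeq lists. Rps27 and Rps27rt share an unbroken stretch of 19 bases here. A C at or within 5 bases of a listed start, followed by at least 4 pyrimidines, was found for 30 of 66 members (45.5%). The share was 21.2% of 27025 genes with a RefSeq promoter. Such a C can lie inside a run that begins further upstream.

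Gene levels were available as read counts and as FPKM, the count scaled by gene length and by library depth. Library totals lay between 15391854 and 17178478 counts, of which 330694 to 389275 fell on members. Of the 86 members, 83 passed the filter on low counts and were tested among 17505 genes with edgeR's quasi-likelihood test and Benjamini-Hochberg adjustment over all of them. The other 3 are the paralogs Rpl3l and Rpl39l, with 0 to 4 counts per library, and Rpl10l, which is listed at 0 in all 6. Tox3 itself was counted at 64.3, 63.0 and 64.4 CPM (counts scaled to a common normalised library total) in controls and 55.3, 63.2 and 59.2 CPM in mutants. That count is of the whole gene row and does not show the deleted part apart, so it checks no label. The study reports near-complete loss of Tox3 in P1 mutant cerebella by RT-qPCR. The reason for the difference from the count was not tested. Atoh1, the transcription factor that specifies granule neurons, was counted at 32.6, 32.0 and 30.9 CPM in controls and 0.577, 0.261 and 0.249 CPM in mutants (log2 fold change -6.40, edgeR adjusted p = 8.85e-08).

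Ribosomal protein mRNAs were lower in the mutant cerebella as a group, by a small amount that varied between genes. Of the 83 tested members, 76 had a negative log2 fold change (mutant minus control) and 7 a positive one. The median was -0.20, with quartiles of -0.25 and -0.14, whereas the median of all tested genes was -0.01. At an adjusted p under 0.05, 42 members fell, beside 12.9% of all tested genes (2252 of 17505). No member rose by edgeR at that threshold, beside 12.2% of all tested genes. At an unadjusted p under 0.05, 55 members were lower and 1 was higher, beside 6499 of 17505 tested genes in either direction. DESeq2 called 45 members lower and 0 higher, and limma-trend on log2(FPKM + 1) called 37 and 0.

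**Figure D1:**
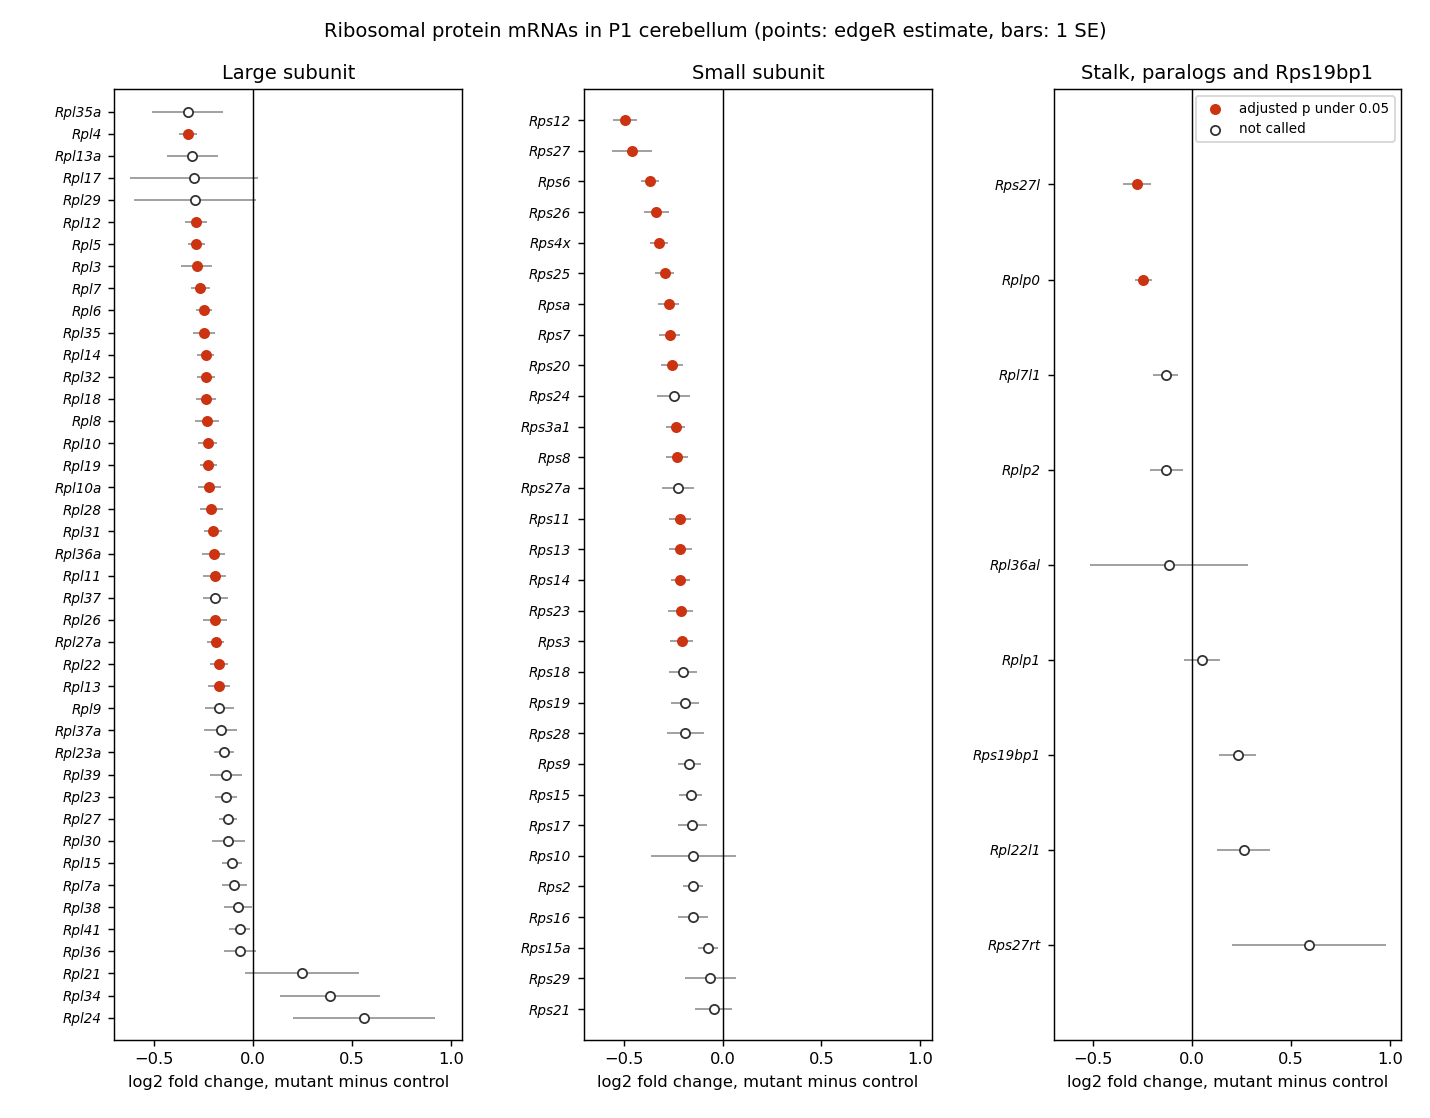
Log2 fold change (mutant minus control, edgeR, x axis) of the tested ribosomal protein genes that are reported here, by subunit, with bars of 1 standard error. Filled points are genes at an adjusted p under 0.05, all to the left of 0, and open points the genes that were not called, of which 7 lie to the right.

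The falls were too small for the thresholds of the study's methods, an adjusted p under 0.01 with a log2 fold change beyond 0.5. No member reached them in edgeR or in DESeq2, beside 6.66% of all tested genes in either direction. An adjusted p under 0.01 alone left 26 members, all lower, beside 1268 of all 17505 tested genes that were lower at that threshold. For 52 members every mutant library lay below every control library in CPM, beside 20.1% of all tested genes. For 1 member, Rps19bp1, every mutant library lay above, beside 20.4%.

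Most members are among the most abundant mRNAs, where counting error is small and calls are more frequent. Of 2656 genes that averaged 100 CPM or more, 22.5% were called lower, compared with 41 of the 70 members at that level. The median log2 fold change was -0.21 in those 70 members and -0.01 in the 2586 other genes at that level.

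The share of all counts that fell on the 86 members was 2.45%, 2.33% and 2.49% in control 1, 2 and 3. It was 2.14%, 2.15% and 2.08% in mutant 1, 2 and 3. The groups did not overlap, and the mean fell by 0.30 percentage points (control 2.42% ± 0.0838, mutant 2.12% ± 0.0389, SD, n = 3 each). The two-sided exact permutation p was 0.1, the smallest that 3 libraries against 3 can give.

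The median member was lower in every mutant library than in any control library. Relative to each gene's control mean, the median member stood at 0.02, -0.06 and 0.05 on the log2 CPM scale in the controls. It stood at -0.20, -0.17 and -0.22 in the mutants, while the median of all tested genes stayed between -0.0048 and 0.0121 in every library.

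**Figure D2:**
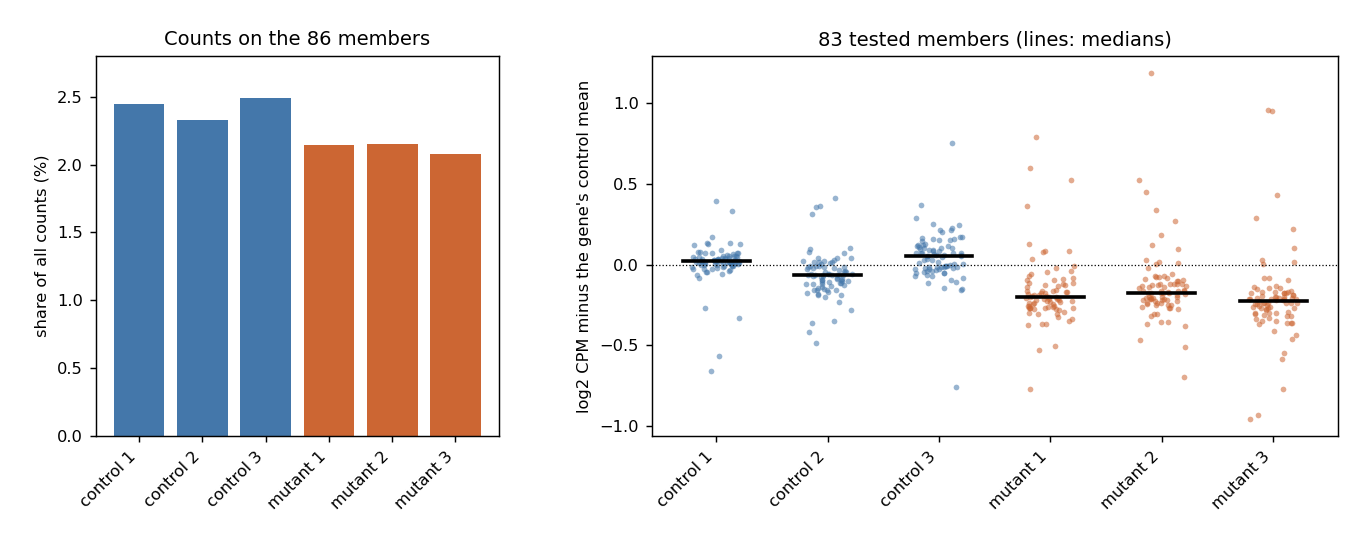
Left, percentage of all counts on the 86 members in each library, from 2.08% in mutant 3 to 2.49% in control 3. Right, log2 CPM of each of the 83 tested members minus its own mean over the controls, with the median of each library as a line; the 3 mutant medians lie at -0.17 or lower, and scattered single genes lie far from them in every library.

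The call count depended on which libraries entered. Leaving out mutant 3 reduced it from 42 to 27, leaving out control 2 raised it to 52, and leaving out another library gave 30 to 42. The median of the members stayed between -0.24 and -0.18 across these fits. In every fit that was run, at least 72 members had a negative value, and 10 members were called lower in all 19 alternatives, among them Rpl5, Rpl6, Rpl7, Rpl14, Rpl27a, Rps4x, Rps6, Rps12 and Rps25.

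The small subunit was lower throughout. All 31 of its members had a negative value, 17 fell at an adjusted p under 0.05, and the median was -0.21. Rps12, a small subunit protein, had the largest called fall of all members in this fit. With pseudogene rows added, Rps27 had the larger fall (-0.46 against -0.42). The same held without control 1 (-0.45 against -0.42) and without mutant 3 (-0.60 against -0.52). The level of Rps12 was 113, 97.1 and 99.9 FPKM in controls and 72.0, 72.2 and 76.9 FPKM in mutants (log2 fold change -0.49, SE 0.0627, adjusted p = 0.000476). The lowest control thus lay well above the highest mutant.

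Rps27, a zinc finger protein of the small subunit, came next at 149.5, 142 and 155 FPKM in controls and 106, 91.8 and 129 FPKM in mutants (log2 fold change -0.46, SE 0.102, adjusted p = 0.00892). Here the mutants differed among themselves, with mutant 2 lowest and mutant 3 highest. Rps6, the small subunit protein that S6 kinases phosphorylate downstream of mTOR, was at 274, 282 and 268 FPKM in controls. In mutants it was at 213, 211 and 217 FPKM (log2 fold change -0.37, SE 0.0438, adjusted p = 0.000331), with little spread within either group.

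Rps26 lies near the channel through which the mRNA leaves the ribosome. It was at 371, 384 and 321 FPKM in controls and 288, 287 and 283 FPKM in mutants (log2 fold change -0.33, SE 0.0653, adjusted p = 0.00472). The controls spread more than the mutants, and the groups did not overlap.

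Rps4x is the small subunit gene on the X chromosome. It was at 303, 287 and 299 FPKM in controls and 243, 239 and 233 FPKM in mutants (log2 fold change -0.32, adjusted p = 0.000872). All 4 X-linked members (Rpl10, Rpl36a, Rpl39 and Rps4x) had negative values and 3 of them fell, Rpl39 being the one not called (adjusted p = 0.244). Rpsa, which also serves as a laminin receptor, was at 297, 296 and 269 FPKM in controls and 242, 239 and 235 FPKM in mutants (log2 fold change -0.27, adjusted p = 0.00382).

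The large subunit showed the same order of change. Of 43 members, 40 had a negative value, 23 fell at an adjusted p under 0.05, and the median was -0.20. Rpl4, which lines the tunnel through which the nascent chain leaves, was at 421, 415 and 396 FPKM in controls. In mutants Rpl4 was at 338, 320.1 and 328 FPKM (log2 fold change -0.33, SE 0.046, adjusted p = 0.000803). The 3 mutant libraries lay close together and below every control.

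The stalk of the large subunit recruits the elongation factors. Its scaffold Rplp0 was at 575, 565 and 561 FPKM in controls and 489.6, 477 and 474 FPKM in mutants (log2 fold change -0.25, SE 0.0419, adjusted p = 0.00223). Rplp1, which binds the scaffold as a dimer with Rplp2, was at 809, 732 and 975 FPKM in controls and 885, 888 and 842 FPKM in mutants (0.05, adjusted p = 0.72). Its mutant values all lay inside the range of the controls. Rplp2 was at 107, 104 and 132 FPKM in controls and 108, 108 and 98.9 FPKM in mutants (-0.13, adjusted p = 0.299), so that of the 3 stalk genes only Rplp0 was called. Whether the stalk genes differ from each other in their change was not tested.

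Levels per length spanned more than the changes did. Rplp1 had the highest mean at 855 FPKM, followed by Rpl41 at 566, Rpl36 at 564 and Rps15 at 563 FPKM. The last 3 did not differ beyond their spread across libraries, and none of the 4 was called. Rpl36 was at 584, 503 and 639 FPKM in controls and 554, 577 and 527 FPKM in mutants, and Rpl41 and Rps15 overlapped between the groups as well. The log2 fold changes were -0.07 for Rpl41, -0.06 for Rpl36 and -0.16 for Rps15 (adjusted p = 0.405, 0.598 and 0.0765).

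At the other end stood Rpl36al at 0.503, Rpl24 at 1.29, Rps10 at 1.55 and Rpl13a at 9.17 FPKM on average. Rpl24, Rps10 and Rpl13a encode ordinary subunit proteins, so their listed levels are far below those of their partners in the same subunit. All 4 overlap another gene row on the same strand: Gm49383 for Rpl36al, Gm28037 for Rpl24, RPS10-NUDT3 for Rps10 and Gm45713 for Rpl13a. Each of these 4 other rows has 0 counts in all 6 libraries. Rpl13 and Rpl19 also overlap such rows, Gm20388 and Gm11629, without being low. How the authors' counting treated reads in overlapping genes is not stated. Counts per library were 10 to 32 for Rpl24, 47 to 72 for Rps10 and 8 to 14 for Rpl36al, and none of these members was called (adjusted p = 0.29, 0.657 and 0.862). Their values are uncertain as measures of the genes' mRNA.

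**Figure D3:**
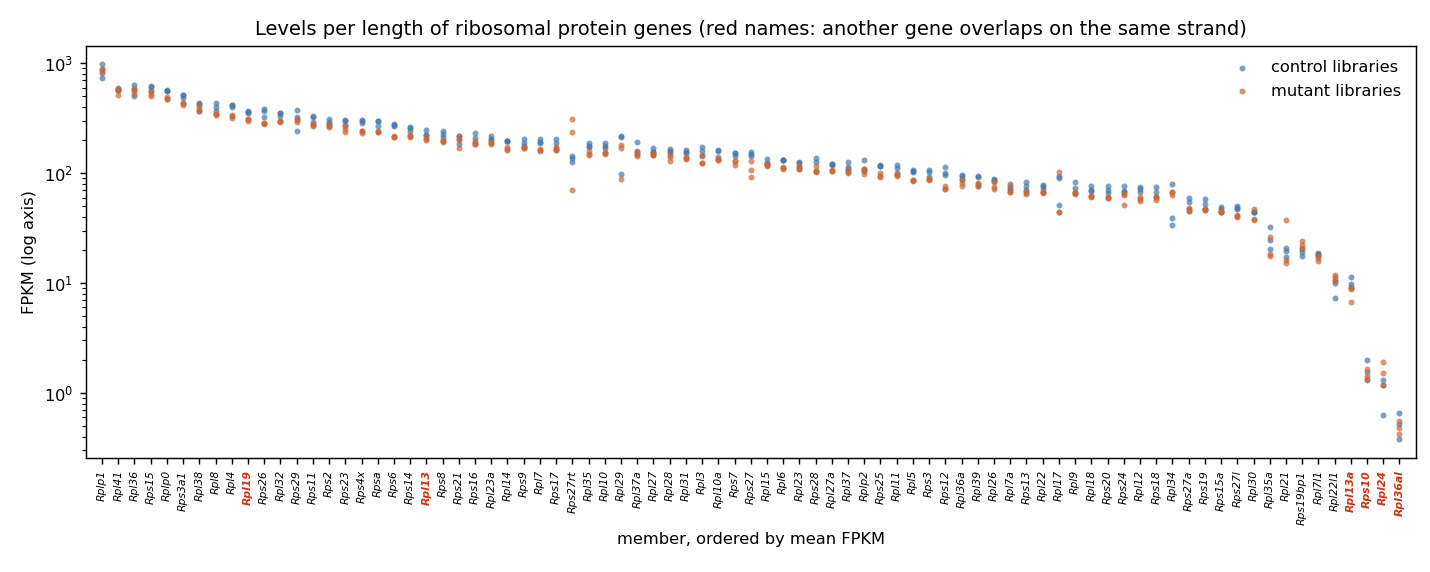
FPKM (log axis) of each tested member reported here in the 6 libraries, ordered by mean from Rplp1 (855 FPKM) to Rpl36al (0.503 FPKM). Names in red are the 6 members that another gene row overlaps on the same strand, small RNA genes aside; 4 of them are the 4 lowest.

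Paralogs were low beside their main genes, with exceptions. Rpl7l1 was at 17.7 FPKM and Rpl7 at 179 FPKM on average, and Rpl22l1 at 10.3 FPKM beside Rpl22 at 71.2 FPKM. Rpl22 fell, from 75.7, 72.0 and 78.3 FPKM to 67.3, 66.4 and 67.5 FPKM (log2 fold change -0.17, adjusted p = 0.0198). Its call was lost without control 1, control 3, mutant 1 or mutant 3 (adjusted p = 0.0578 to 0.0752). Rpl22l1 was at 10.1, 7.24 and 10.7 FPKM in controls and 11.9, 10.4 and 11.3 FPKM in mutants (0.26, adjusted p = 0.195). The control and mutant values of Rpl22l1 overlapped, and the opposite signs of the pair were not tested against each other.

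Rps27l, a paralog known as a p53 target, was at 50.6, 47.6 and 48.6 FPKM in controls and 41.4, 40.5 and 39.5 FPKM in mutants (log2 fold change -0.28, adjusted p = 0.0168, and 0.0629 without mutant 3). It was the one paralog called, and Rps27 stood 2.88 times as high per length. Rpl7 was at 202, 189.5 and 193 FPKM in controls and 163, 167 and 159 FPKM in mutants (-0.27, adjusted p = 0.00288), and its paralog Rpl7l1 was not called (-0.13, adjusted p = 0.142). Rpl10, Rpl36a and Rpl3 also fell (-0.23, -0.20 and -0.29, adjusted p = 0.00776, 0.0349 and 0.027), while their paralogs Rpl10l and Rpl3l were below the filter and Rpl36al was too low to judge. The call of Rpl3 was lost when control 1, control 2, mutant 1 or mutant 2 was left out (adjusted p = 0.0562 to 0.103), and that of Rpl36a when control 2, control 3, mutant 1 or mutant 3 was (0.0925 to 0.14).

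Several members varied between libraries of 1 group by more than the change between groups, and in some of them the rows of near-identical copies varied as well. Ribosomal protein genes have many processed pseudogenes, copies made from mRNA. Such rows, 296 in all, are listed for 60 members, and held 0.093% to 0.117% of all counts per library. Only rows named as the member followed by ps, with or without a number, were taken. A copy listed under any other symbol was not counted here or in the sums below. For 13 members the pseudogene rows held over 10% of the counts of gene and copies together, and for Rpl17 (80.2%) and Rps10 (96.6%) they held most of them.

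Rpl34, which had a positive fold change, shows the pattern plainly. Its counts were 1595, 1371 and 3285 in controls and 3123, 2765 and 2707 in mutants, low in control 1 and control 2 only. The pseudogene row Rpl34-ps1 on chromosome 6 (chr6:71124610-71124963, GRCm38) had 1889, 1874 and 252 counts in controls and 270, 245 and 161 in mutants. It was high in the same 2 libraries in which Rpl34 was low. Gene and pseudogene rows together came to 3484, 3247 and 3537 counts in controls and 3393, 3010 and 2868 in mutants.

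Rpl17 and its pseudogene rows behaved likewise. Rpl17 had 612, 1126 and 1093 counts in controls and 600, 1235 and 554 in mutants, whereas the sums with the pseudogene rows were 4581, 4420 and 4992 in controls and 4559, 3838 and 4035 in mutants. The highest library exceeded the lowest 2.33 times in the gene's row and 1.28 times in the sum. For Rps24 the pseudogene rows had 497, 564 and 14 counts in controls and 24, 16 and 396 in mutants, high in control 1, control 2 and mutant 3. Rps24 itself was lowest of its group in control 2 (6540 counts) and mutant 3 (5179 counts). Rpl29 differed: its counts of 3837, 3745 and 1747 in controls and 3490, 2968 and 1597 in mutants were low in control 3 and mutant 3. Its pseudogene rows held 11 to 20 counts per library, and copies under any other symbol were not counted.

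Rps27 and Rps27rt, the pair with the shared start sequence, were counted in protein-coding rows. Rps27rt was at 138, 144 and 126 FPKM in controls and 237, 309 and 70.6 FPKM in mutants (log2 fold change 0.59, SE 0.387, adjusted p = 0.302). It was high in mutant 1 and mutant 2 and lowest in mutant 3, the reverse of the order of Rps27 in the mutants. The counts of both rows together were 3220, 3127 and 3288 in controls and 3458, 3279 and 2592 in mutants, so the groups overlapped in the sum, where no test was run. The fall of Rps27 alone is therefore uncertain as a change of the mRNA from either gene.

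**Figure D4:**
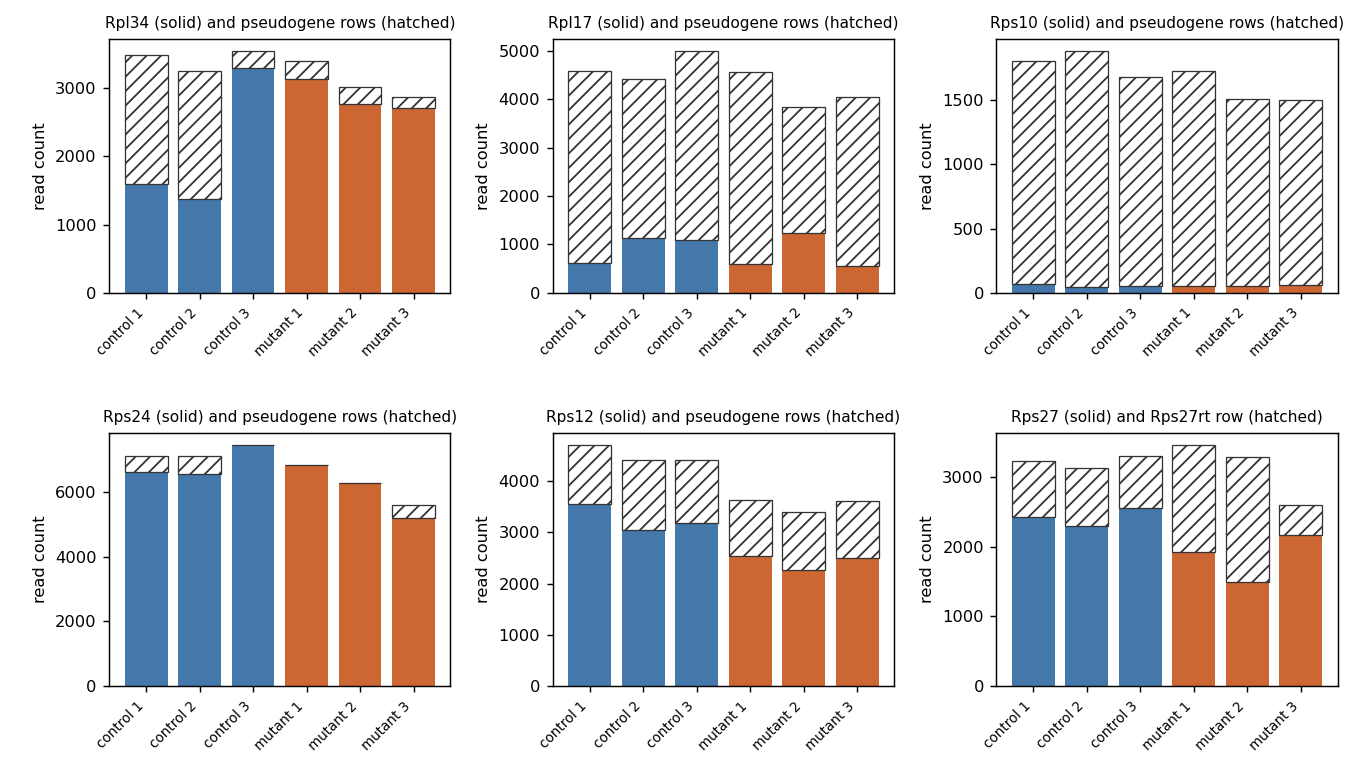
Read counts per library in the member's own row (solid, blue for control and orange for mutant) and in the rows of its copies (hatched, stacked on top) for Rpl34, Rpl17, Rps10, Rps24, Rps12 and Rps27. In Rpl34 the solid part is smaller in control 1 and control 2 than in the other libraries while the whole bar is not, and in Rps12 both the solid part and the whole bar are lower in every mutant.

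With the pseudogene counts added to each member, an alternative chosen after seeing the data, 77 of 83 members had a negative value and 48 fell, beside 13% of all genes tested that way. The median was -0.21. Rpl34 moved from 0.39 (adjusted p = 0.3) to -0.22 (adjusted p = 0.013), the only member whose sign changed. Rpl17 moved from -0.30 (adjusted p = 0.546) to -0.25 (adjusted p = 0.00673) and Rps10 from -0.15 (adjusted p = 0.657) to -0.25 (adjusted p = 0.0111). Rps24, Rps2 and Rpl37 were the other members newly called, at adjusted p = 0.00769, 0.0357 and 0.0496, and no call was lost. Rps12, with 24 pseudogene rows, kept its fall at -0.42 (adjusted p = 0.000327). Members whose highest library exceeded their lowest by over 1.5 times went from 14 to 10. Of the 7 members with positive values, 6 kept them: Rplp1, Rps19bp1, Rpl21, Rpl22l1, Rpl24 and Rps27rt.

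Partners of the ribosome were lower by about the same amount. For the gene lists that follow, edgeR called 12.9% of all tested genes lower and 12.2% higher. Rack1, a scaffold on the small subunit, was counted at 501, 464 and 488 CPM in controls and 388, 391 and 386 CPM in mutants (log2 fold change -0.32, adjusted p = 0.000976). Fau, which encodes a ubiquitin-like protein fused to a small subunit protein, fell as well (-0.18, adjusted p = 0.0154).

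Translation factors whose mRNAs also carry a TOP tract fell in 13 of 16 cases, with a median of -0.20. The elongation factor Eef1a1 was at 4811, 4627 and 4517 CPM in controls and 4023, 3933 and 3893 CPM in mutants (-0.24, adjusted p = 0.00191). Pabpc1, the poly(A) binding protein, had a log2 fold change of -0.36 (adjusted p = 0.00377) and the RNA-binding protein Hnrnpa1 one of -0.28 (adjusted p = 0.00407). No gene of the list rose by edgeR, DESeq2 or limma, nor was any higher at an unadjusted p under 0.05.

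Of 55 ribosome biogenesis factors, which process rRNA and assemble subunits in the nucleolus, 23 fell and none rose by edgeR (1 was higher at an unadjusted p under 0.05, and 0 by DESeq2 or limma), with a median of -0.21. The nucleolar chaperone Npm1 was at 355, 348 and 330.1 CPM in controls and 249, 258 and 260.0 CPM in mutants (-0.43, adjusted p = 0.000198). Dkc1, the pseudouridine synthase of small nucleolar RNPs, was the 1 gene of the list past the study's thresholds (-0.62, adjusted p = 0.00083). Nop58, a core protein of such RNPs, had -0.46 (adjusted p = 0.002). As hosts of small nucleolar RNAs, 30 members contain 58 snoRNA genes on their own strand, which the poly-A libraries were not made to measure.

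RNA polymerase I, which transcribes rRNA, and its factors had negative values in 14 of 14 cases and 3 fell (median -0.12), beside 12.9% of all tested genes called lower. DESeq2 called 1 of them lower and limma 2. The 3 were the initiation factor Ubtf (-0.32, adjusted p = 0.000883) and the polymerase subunits Znrd1 and Polr1b (-0.43 and -0.24, adjusted p = 0.0316 and 0.0425). Among 18 mTOR, LARP1 and Myc regulators, 4 fell and 1 rose (median -0.16). Of all tested genes 12.9% fell and 12.2% rose, and of genes that averaged 100 CPM or more 22.5% fell. Mycn, which drives growth of GNPs, was at 147, 144 and 134 CPM in controls and 94.4, 89.6 and 91.8 CPM in mutants (-0.62, adjusted p = 4.92e-05). The translation repressor Eif4ebp2 and the Myc family member Mycl had -0.42 each (adjusted p = 0.000117 and 0.000712), and Mtor itself was the gene that rose (0.18, adjusted p = 0.0218).

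Mitochondrial ribosomal proteins differed little: 6 of 77 fell and 0 rose by edgeR, with a median of -0.04. By DESeq2 4 fell and 0 rose, by limma 4 fell and 1 rose, and 1 was higher at an unadjusted p under 0.05. Mrps30, Mrps10 and Mrps2 had the smallest p (-0.34, -0.27 and -0.33, adjusted p = 0.0153, 0.0192 and 0.0202). Nuclear-encoded respiratory chain subunits, also abundant and encoded by short mRNAs, had a positive median of 0.12. Of 77, 63 had positive values, 8 rose and 1 fell, a count of rises near the 12.2% of all tested genes. Cox6b1, Cox8a and Atp5g1 led (0.25, 0.18 and 0.32, adjusted p = 0.00728, 0.00951 and 0.0213). Of 12 tested proteins encoded in mitochondrial DNA none was called by edgeR, DESeq2 or limma (1 at an unadjusted p under 0.05), with a median of 0.07. The Rps6k kinases, left out by name, gave 2 falls (Rps6ka6 and Rps6ka3, -0.53 and -0.40) and 1 rise (Rps6kl1, 0.39) among 10. The shares of all tested genes were 12.9% and 12.2%.

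**Figure D5:**
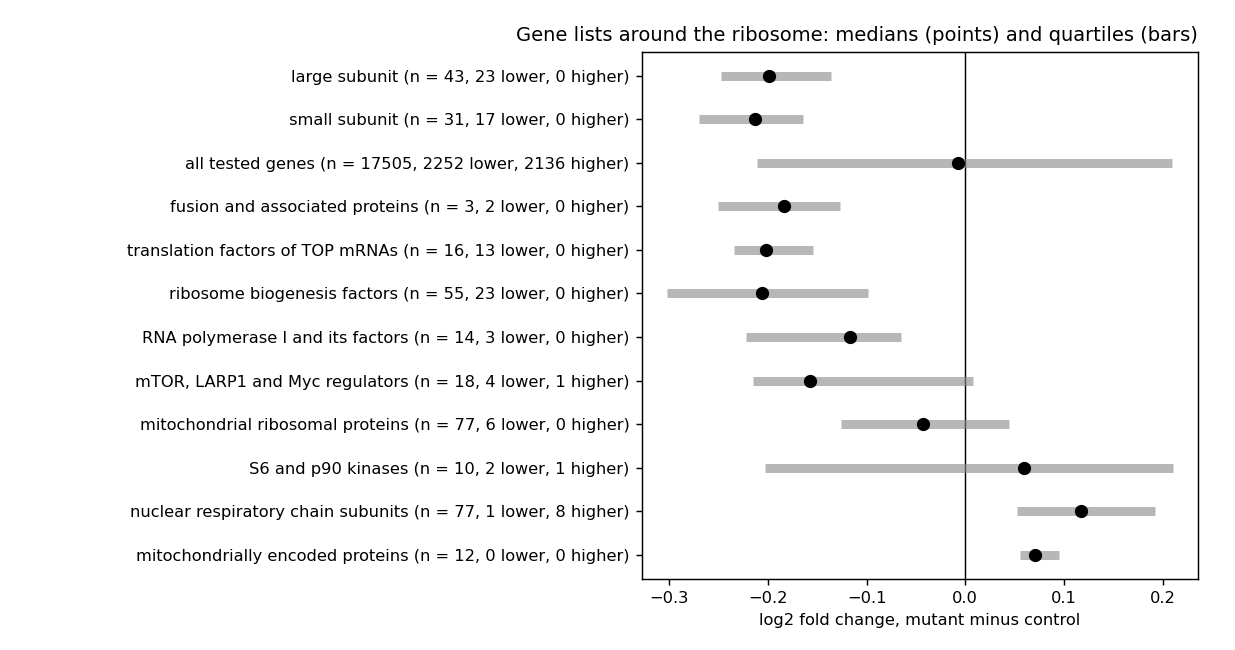
Median (point) and quartiles (bar) of the log2 fold change, mutant minus control, of each gene list, with the number tested and the numbers called lower and higher at an adjusted p under 0.05. The ribosomal subunits, TOP translation factors and biogenesis factors have medians between -0.21 and -0.20, mitochondrial ribosomal proteins lie at -0.04 and respiratory chain subunits at 0.12.

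The listed gene length had a median of 1739 bases in the tested members and 3936 in all tested genes. It is a value per gene row, 6270 bases for Rps15a for example, and not a measured transcript length. The change was set beside that of other genes of like listed length, which need not have mRNAs of like length. In the class of 1 to 2 kb, 35 members had a median of -0.20 and 2225 other genes one of 0.04. In the class of 2 to 3 kb, 19 members had a median of -0.20 and 2743 other genes one of 0.03. Up to 1 kb the values were -0.14 for 13 members and -0.04 for 1285 other genes, and from 3 to 5 kb -0.24 for 14 members and 0.01 for 4701. In each of these classes the members' median was the lower. With a length trend removed, 47 members fell.

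Markers of the cell types of the tissue moved with the same groups. All 8 GNP markers fell (median -1.17), and their summed level was 1581 to 1708 CPM in controls and 652 to 726 CPM in mutants, with Atoh1 near 0 in the mutants. All 6 listed markers of granule neurons fell (median -0.89, summed 3691 to 3798 and 2391 to 2593 CPM). Among them is Pax6, which the study's single-nucleus data show in GNPs and granule neurons alike. The list therefore does not separate granule neurons from GNPs. The same data gave comparable numbers of granule neurons in control and mutant samples. All 7 Purkinje cell markers rose (median 0.63, summed 1515 to 1605 and 2138 to 2514 CPM), as did all 6 markers of glia and astrocytes (median 0.43, summed 2731 to 2758 and 3393 to 3639 CPM). In bulk tissue, fewer cells of a type and less RNA per cell cannot be told apart, and the part of these markers in the lower ribosomal protein level was not tested.

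Other cell types changed less evenly. Of 6 oligodendrocyte markers 4 rose and 1 fell, and of 6 each for microglia and meninges 2 and 3 rose. Of 6 endothelial markers 1 fell. Choroid plexus markers summed to 77.2 to 144 CPM in controls and 13.2 to 759 CPM in mutants, the highest in mutant 3 (Ttr 711 CPM) and the lowest in mutant 2 (Ttr 6.06 CPM). No choroid plexus or erythrocyte marker was called by edgeR, DESeq2 or limma (2 of 6 and 0 of 6 at an unadjusted p under 0.05). The members' share of counts was 2.15% in mutant 2 and 2.08% in mutant 3, and their median log2 fold change was -0.21 without mutant 2 and -0.18 without mutant 3. The part of choroid plexus tissue in these values was not tested.

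Short motifs were counted, as a description, in the 300 bases from 250 before to 50 after each RefSeq start, on both strands. CCGGAAG, a core ETS family motif, was in 39.4% of the 66 members and 9.9% of all 27025 genes. GGGCGG, bound by Sp1-like factors, was in 62.1% and 38.2%, CTTTCC in 54.5% and 29.3%, and AAGATGGC, bound by Yy1, in 9.1% and 3.2%. The Myc-type E-box CACGTG was in 9.1% and 8.1%, the E-box CAGCTG in 6.1% and 18.3%, and TATAAA in 10.6% and 15.7%. CTTTCC can lie within a pyrimidine run counted above, and a match is not a binding site.

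The members' change was also set beside these features, as a description with no test. The 30 tested members with a C and pyrimidines near a listed start, as counted above, had a median log2 fold change of -0.20. The 33 without had -0.19. With and without CCGGAAG the medians were -0.19 (25 members) and -0.19 (38 members), and with and without CACGTG -0.21 (6 members) and -0.19 (57 members). They were -0.24 (6 members) and -0.19 (57 members) for AAGATGGC, -0.25 (2 members) and -0.19 (61 members) for CAGCTG, and -0.17 (7 members) and -0.20 (56 members) for TATAAA. For GGGCGG they were -0.19 (40 members) and -0.20 (23 members), and for CTTTCC -0.19 (34 members) and -0.20 (29 members).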

How the data were processed

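The authors purified poly-A RNA, sequenced 150 bp paired-end reads, aligned them to mm10 with HISAT2 2.0.5 and counted them per gene with featureCounts 1.5.0-p3. Their annotation release, strand setting and handling of multi-mapped reads are not given in the sources used here. The deposited counts are raw. The deposited FPKM values were made by the authors from gene length and counts. 

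The quasi-likelihood test of edgeR 4.0.16 (under R 4.3.3, after filterByExpr and TMM scaling) compared 3 mutant with 3 control libraries, and the fit was tested on simulated data. Each SE is the absolute log2 fold change divided by the square root of edgeR's F statistic, so it rests on the fitted model. The ± values of the share are SD across libraries. Libraries of a group differed by more than sampling noise (chi-square per gene 3.63 to 10), so none was a copy. DESeq2 1.42.0, limma 3.58.1, other scalings, filters, thresholds, a replicate block, a length trend, a Y-chromosome covariate and single libraries left out were alternatives.

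The members and lists were chosen with earlier results of these data known. Named members were the 8 lowest called, the 4 highest and 4 lowest by FPKM, stalk genes, Rpsa and paralog pairs, and of each pathway list the 3 smallest p. Some genes that this rule names are not reported here. Other members named, mainly for their spread between libraries, and Mtor were chosen after their values were seen.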

Additional observations from a re-analysis of the deposited data

How the results depend on the processing

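The median log2 fold change of the members and the share of counts on them kept their direction in every alternative, and the count of 42 falls moved by over 1.5 times only in the 3 settings given next. An adjusted p under 0.01 left 26 falls (beside 1268 of 17505 tested genes), and limma-trend on unfiltered log2(FPKM + 1) values left 11. Leaving out 1 library gave 27 to 52 falls (27 without mutant 3), 0 to 1 rises, 0 to 3 members past the study's thresholds, a median of -0.24 to -0.18 and a change in the share of -0.35 to -0.27 percentage points. The single rises were Rpl34 without control 3 and Rps27rt without mutant 3. In place of 0 rises, an adjusted p under 0.1 gave 1 (Rps19bp1) and no filter on low counts gave 2 (Rpl34 and Rps27rt). In place of 0 members past the study's thresholds, the Y-chromosome covariate gave 2 (Rps12 and Rps27), the length trend 1 (Rps12) and no filter 1 (Rps27rt). The cause of these changes was not tested.

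Among named members, the log2 fold change turned its sign for Rpl36 with the length trend removed (0.0202). With 1 library left out it ranged from -0.0389 (without control 2) to 0.1721 for Rplp1, from -0.1535 to 0.0172 (without control 3) for Rpl36, from -0.2943 to 0.087 (without control 3) for Rpl36al and from -0.2797 to 0.0346 (without control 1) for Rps10. None of them was called in either case. Of the other values of named members under an alternative, 494 kept their direction and side of the threshold, 25 lost a call and 6 gained one.

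With the replicate number as a block, 50 members fell and 0 rose, against 2766 and 2393 of all tested genes. Same-numbered libraries did not deviate together in every pair (correlations of 0.243, 0.265 and -0.163). The best match had the same number for 1 of 3 controls and 2 of 3 mutants. Whether same-numbered libraries share a litter or batch is not stated and was not tested. The depth and 3 libraries a group limit what can be said of Rpl24, Rpl36al and Rps10.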
